A study of Mus musculus with 20 samples.

Results

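The genes described here are 8 SNARE and vesicle fusion genes, Snap25, Stx1a, Vamp1, Vamp2, Vamp4, Vamp7, Nsf and Napb, of 55487 genes in the count table. They were taken as a list of symbols, with no measured value in the rule, and each was found under 1 Ensembl identifier. Each of the 8 passed the filter on low counts in each of the 5 fits reported below, so none is missing from a comparison.

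SNARE proteins drive membrane fusion. They pair across a vesicle and its target membrane and pull both together as the complex zips up. R-SNAREs such as the VAMPs sit mainly on vesicles, and Q-SNAREs such as syntaxin-1 and SNAP-25 sit mainly on the plasma membrane. The ATPase NSF, held on by SNAP adaptors, takes used complexes apart so that their parts can be used again. In a growing axon vesicle fusion adds membrane at the tip, and at a synapse it releases transmitter.

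Libraries were made at postnatal day 1 from mouse subcerebral projection neurons, whose axons leave the cortex for the brainstem and spinal cord. The 4 groups of 5 libraries were growth cones, the tips of the axons, isolated from brainstem and spinal cord, and somata, the cell bodies, from cortex, each from wild-type (WT) and from Bcl11b-null animals (labelled KO). Bcl11b encodes a transcription factor of these neurons. Experiment numbers name the libraries, 7 to 11 for growth cones of both genotypes, 12, 14, 22, 25 and 26 for WT somata, and 14, 15, 22, 25 and 26 for somata labelled KO. Growth cones and somata shared no number, so compartment and experiment cannot be told apart in the compartment differences below. The null allele, the strain, the means by which the neurons were marked and sorted, and any pooling of animals are not given in the sources used here. The p-values below therefore measure the spread between libraries, which may be technical.

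Library totals ran from 18962308 to 51205154 counts. Levels are given as CPM, counts scaled to the library total, after TMM scaling over the 20 libraries, with the SD over n = 5 libraries. Bcl11b split by the soma labels without overlap, but was higher, not lower, in somata labelled KO. It was at 537 to 806 CPM in WT somata and 1079.9 to 1232 CPM in somata labelled KO (log2 fold change 0.71 ± 0.12 SE, adjusted p = 0.0153), and at 69.9 to 141 CPM over the 10 growth cone libraries. The soma call was lost in 1 fit of all 20 libraries (0.72, adjusted p = 0.279). Bcl11b therefore gives no check on the direction of the labels, and directions between genotypes rest on the labels alone. Growth cone library 7 labelled KO stood apart. It had the lowest level of its group for 6 of the 8 genes (Snap25, Stx1a, Vamp1, Vamp2, Nsf and Napb) and the highest for Vamp7.

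Markers of other cells differed between the compartments. Summed over 7 astrocyte markers, the level was 1528 to 2157 CPM in growth cone libraries and 25.7 to 312 CPM in somata. The 8 oligodendrocyte lineage markers summed to 520.1 to 2207 CPM against 66.4 to 129 CPM, and the 7 interneuron markers to 375 to 532 CPM against 11.4 to 59.3 CPM. The 9 hindbrain and spinal cord markers summed to 54.2 to 209.7 CPM in growth cone libraries and to at most 0.188 CPM in somata, where Hoxb3 and Hoxc6 were at 0 counts in all 10 libraries. The 5 choroid plexus markers reached 198 to 417 CPM against at most 1.99 CPM, and the 8 vessel and blood markers 235 to 586 CPM against 0.653 to 68.8 CPM. Single genes of these lists are named after their values were seen. Ttr, at 194 to 390 CPM in growth cones, made up most of the choroid plexus sum. Globin genes such as Hba-a1 (104 to 313 CPM in growth cones, at most 8.56 CPM in somata) made up most of the vessel and blood sum. The vessel genes Cldn5, Pecam1, Kdr and Flt1 overlapped between the compartments. The 6 microglia markers overlapped, at 9.67 to 118 CPM and 3.42 to 92.6 CPM. The 7 markers of subcerebral projection neurons other than Bcl11b summed to 532 to 816 CPM in growth cones and 1148 to 1499 CPM in somata. All 7 were detected in every group. Pcp4, named after its values were seen, went the other way, at 113 to 444 CPM in growth cones and 10.4 to 61.2 CPM in somata, and the other 6 summed to 279.8 to 495 CPM and 1114 to 1484 CPM. Crym, Fezf2, Etv1 and Diaph3 were named likewise. Crym in libraries labelled KO was at 53.7 to 159 CPM in growth cones and 20.3 to 60.3 CPM in somata. Somata split by genotype without overlap, as 3.17% of all genes did, for Crym (99.5 to 257 CPM in WT) and Pcp4, lower in somata labelled KO. Fezf2, Etv1 (51.5 to 138 CPM in WT, 227 to 307 CPM labelled KO) and Diaph3 were higher there without overlap. The sum hides these opposite shifts. The part of these other cells in the compartment differences below was not tested. In bulk libraries, fewer cells of a type and less RNA per cell cannot be told apart.

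Positions are those of the deposited table. Of its genes, 54515 (98.2%) have the exon list of GENCODE M21, which is on build GRCm38, although the submitters' processing notes name GRCm39. On GRCm38 coordinates Snap25 lies on chromosome 2 at 136713453 to 136782428 (plus strand) and Napb on the same chromosome at 148693985 to 148732467 (minus). Stx1a lies on chromosome 5 at 135023482 to 135051100 (plus), Vamp1 on chromosome 6 at 125215551 to 125245964 (plus) and Vamp4 on chromosome 1 at 162570515 to 162599084 (plus). Chromosome 11 holds Vamp2 at 69088490 to 69092384 (plus) and Nsf at 103821782 to 103954056 (minus). Vamp7 was counted on the scaffold GL456233.1 at 10738 to 39148 (minus). The counts cover the exons, untranslated regions included, of each protein-coding gene. No exon of the 8 overlapped an exon of another counted gene, on either strand. A processed pseudogene of Vamp7 (Vamp7-ps) is counted separately and held 18 counts over the 20 libraries.

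Vamp1 and Vamp2 encode the 2 synaptobrevins, close relatives that serve the same step of transmitter release, and they went opposite ways between compartments. How far counting separates them was not tested, and their counted exons span 10167 bases for Vamp1 and 3809 for Vamp2. Their coding sequences (GENCODE M21, GRCm38), of 357 and 351 bases, were compared. They were identical at 269 of 349 aligned bases (77.1%), with a longest identical run of 18 bases. The most alike stretch of 150 bases, bases 64 to 213 of the Vamp1 coding sequence and 58 to 207 of that of Vamp2, is printed with the 21 bases at which the genes differ in capitals.
Vamp1: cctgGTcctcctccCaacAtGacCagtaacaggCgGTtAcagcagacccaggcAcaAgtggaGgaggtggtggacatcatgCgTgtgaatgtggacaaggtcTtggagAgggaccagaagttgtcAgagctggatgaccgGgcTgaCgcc
Vamp2: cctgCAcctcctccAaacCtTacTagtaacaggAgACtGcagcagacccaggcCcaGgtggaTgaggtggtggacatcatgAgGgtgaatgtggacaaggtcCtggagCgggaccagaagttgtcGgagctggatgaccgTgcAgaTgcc
Even here the differing bases are spread along the stretch rather than gathered at 1 end. Other related pairs were Napb and Napa (76.1% identical, longest run 26 bases) and Snap25 and Snap23 (67.6%, 13 bases).

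Per kilobase of exon, the synaptic R-SNARE Vamp2 was the most abundant of the 8 genes in each of the 4 groups, followed by the plasma-membrane Q-SNAREs Snap25 and Stx1a. In WT somata the means were 154 ± 21.5 CPM per kb for Vamp2, 137 ± 21.2 for Snap25 and 87.5 ± 3.97 for Stx1a. Napb (38.3 ± 4.77), Vamp7 (27.5 ± 4.51) and Nsf (23.0 ± 4.74) came next, then Vamp4 (13.1 ± 1.53) and Vamp1 (0.715 ± 0.217). Library ranges did not overlap between Snap25 and Stx1a, Stx1a and Napb, Nsf and Vamp4, or Vamp4 and Vamp1, while the other neighbours overlapped. In somata labelled KO the order was the same, and Napb and Vamp7 were also apart.

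The lower end of the order differed in growth cones. In WT growth cones Nsf (24.8 ± 8.72 CPM per kb) and Vamp4 (23.9 ± 4.57) stood above Napb (15.2 ± 4.88) and Vamp7 (11.7 ± 4.45), below Vamp2 (76.7 ± 15.7), Snap25 (56.5 ± 18.1) and Stx1a (48.5 ± 4.68). Vamp1 was last at 2.16 ± 0.685 CPM per kb. Of these neighbours, Stx1a and Nsf did not overlap, and neither did Vamp7 and Vamp1. Growth cones labelled KO had the same order, and every pair of neighbours overlapped there. The spread over libraries, as SD in percent of the mean, was wider in growth cones than in somata of the same genotype for each of the 8 genes. For Vamp1 it was 31.6% against 30.3% in WT and 68.3% against 46.2% in libraries labelled KO. For Napb it was 32.2% against 12.5% and 58.2% against 9.55%, and for Stx1a 9.65% against 4.54% and 39.3% against 5.74%.

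**Figure D1:**
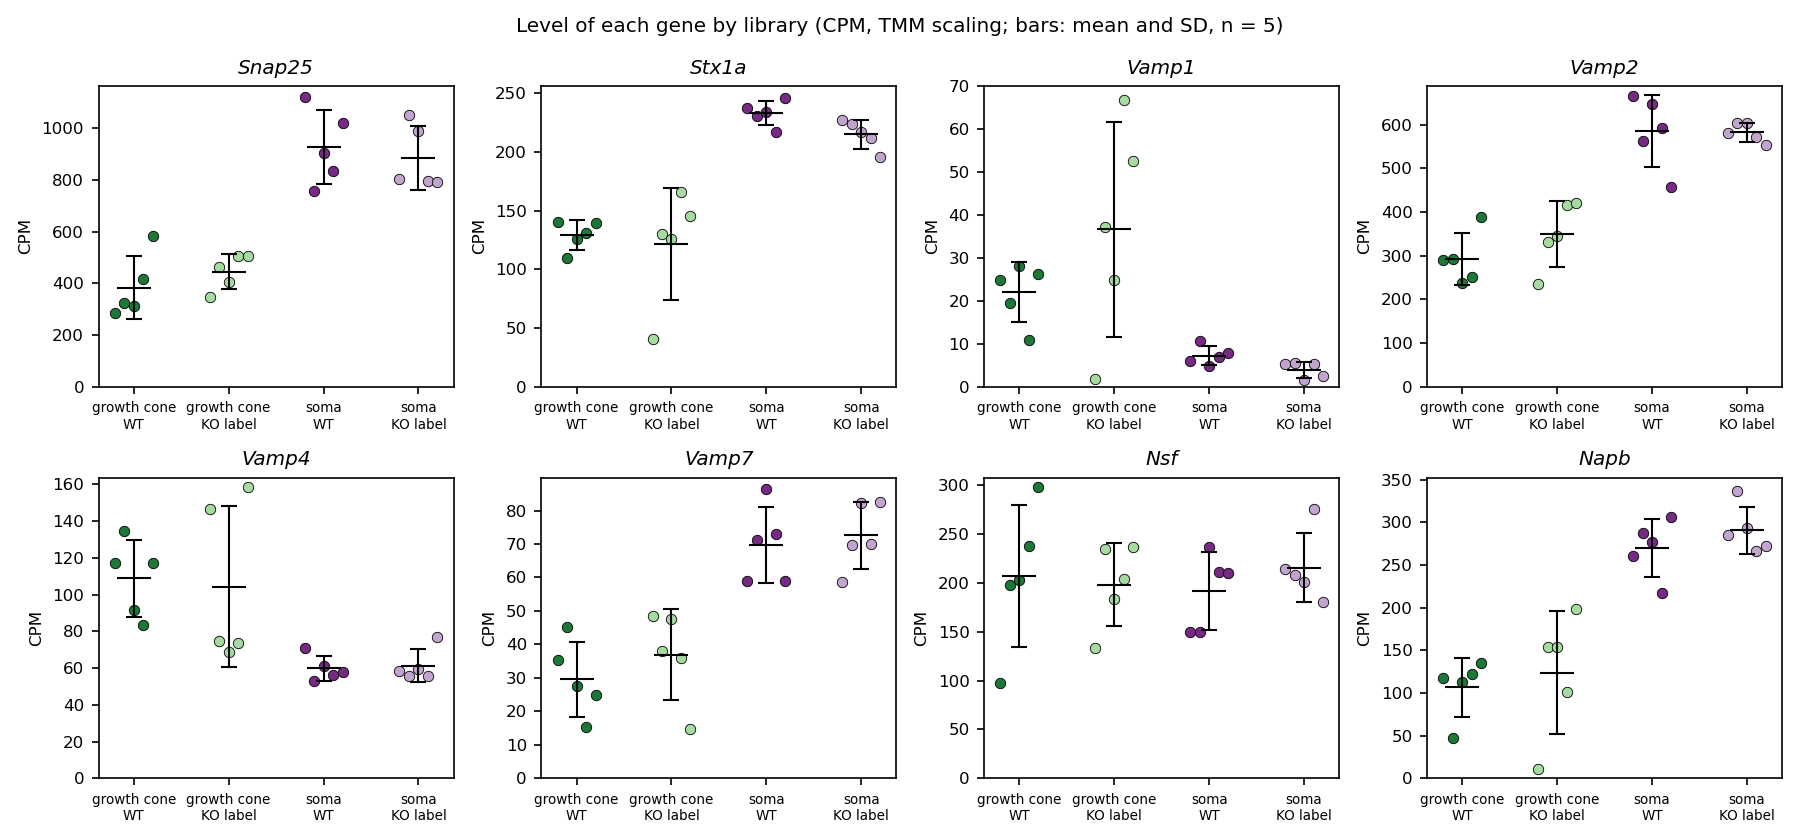
Level of each of the 8 genes in each library (y axis, CPM with TMM scaling, starting at 0; x axis, the 4 groups). Points are libraries and bars are mean and SD, n = 5. Snap25, Stx1a, Vamp2, Vamp7 and Napb sit lower in growth cones than in somata, Vamp4 and Vamp1 sit higher in WT growth cones, and Nsf overlaps in all groups. The low Stx1a, Vamp1 and Napb point in growth cones labelled KO is library 7.

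The first comparison asked how the fusion machinery was represented in growth cone RNA relative to soma RNA in WT. The 3 genes of the synaptic fusion complex, Snap25, Stx1a and Vamp2, were lower in growth cones, as were Vamp7 and Napb, while Vamp1 and Vamp4 were higher and Nsf did not pass. An FDR of 0.05 was passed by 7 of the 8 genes, 2 higher and 5 lower. Over all 15128 genes tested 42.8% passed, 23.1% higher and 19.7% lower. For the same 7 genes the groups did not overlap, which held for 37.9% of all genes. The median log2 fold change of the 8 was -0.88, against 0.07 for all genes.

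Snap25 encodes SNAP-25, the plasma-membrane Q-SNARE that supplies a pair of helices to the synaptic complex. Its level in WT growth cones 7 to 11 was 284, 322, 311, 416 and 585 CPM, against 1119.6, 758, 903, 836 and 1020.2 CPM in WT somata 12, 14, 22, 25 and 26. Every growth cone library lay under the lowest soma library. The means were 383 ± 123 and 927 ± 144 CPM, a log2 fold change of -1.23 ± 0.20 (SE, adjusted p = 0.000458).

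Stx1a encodes syntaxin-1A, the plasma-membrane partner of SNAP-25 in that complex. WT growth cones held 140.2, 109.7, 126, 131 and 139.6 CPM and WT somata 238, 231, 234, 217 and 246 CPM. Both groups were tight and well apart. The log2 fold change was -0.81 ± 0.12 (SE, adjusted p = 0.000231), the smallest standard error among the 8 genes.

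Vamp2 encodes synaptobrevin-2, the main R-SNARE of synaptic vesicles in forebrain. It was at 291, 292, 238, 251 and 390.0 CPM in WT growth cones and 665, 563, 647, 593 and 458 CPM in WT somata. The highest growth cone library stayed under the lowest soma library, and the log2 fold change was -0.96 ± 0.16 (SE, adjusted p = 0.000549).

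Vamp1, the gene of synaptobrevin-1, which prevails in brainstem and spinal cord neurons, went the other way. WT growth cones 7 to 11 were at 24.98, 19.6, 28.1, 10.9 and 26.4 CPM and WT somata at 6.09, 10.6, 4.75, 7.04 and 7.87 CPM. Growth cone library 10 lay just above the highest soma library, and the other 4 lay well above it. The mean rose from 7.27 ± 2.20 CPM in somata to 21.996 ± 6.96 CPM in growth cones, a log2 fold change of 1.64 ± 0.42 (SE, adjusted p = 0.00744). These levels rest on at least 137 counts in a soma library and 329 in a growth cone library. The hindbrain and spinal cord markers given above were higher in the same libraries, and their part in the Vamp1 difference was not tested.

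Vamp4 and Vamp7 serve routes other than the fast release of transmitter. VAMP4 is an R-SNARE of the trans-Golgi network and endosomes, and VAMP7 one of late endosomes that also takes part in neurite outgrowth. Vamp4 was at 117, 135, 91.6, 83.6 and 117 CPM in WT growth cones and 71.1, 53.0, 61.4, 56.2 and 57.6 CPM in WT somata, with no overlap. Vamp7 was at 35.2, 45.2, 27.6, 15.2 and 24.8 CPM in WT growth cones and 59.0, 71.3, 86.3, 73.1 and 58.9 CPM in WT somata, also with no overlap but in the opposite direction. The log2 fold changes were 0.91 ± 0.18 for Vamp4 (SE, adjusted p = 0.00175) and -1.19 ± 0.29 for Vamp7 (SE, adjusted p = 0.00547).

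Nsf and Napb belong to the recycling step. Napb, the gene of beta-SNAP, a neuronal adaptor of NSF, was at 117, 47.1, 113, 123 and 135 CPM in WT growth cones and 261, 288, 277, 217 and 306 CPM in WT somata. Growth cone library 8 was the low one, and no growth cone library reached the lowest soma library. The log2 fold change was -1.29 ± 0.24 (SE, adjusted p = 0.00117). Nsf itself was at 97.9, 197, 203, 238 and 298 CPM in WT growth cones and 149.96, 149.8, 237, 212 and 209.7 CPM in WT somata. The groups overlapped over most of their range, and the log2 fold change of 0.15 ± 0.25 (SE) did not pass (adjusted p = 0.662).

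The 7 WT calls passed whichever of the 10 libraries was omitted and under each of the 7 other settings run, with adjusted p-values of at most 0.0374 (Vamp1). Their directions also held under each scaling, although upper-quartile scaling moved the median of all genes from 0.07 to 0.28 in WT and from 0.11 to 0.31 in libraries labelled KO.

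The same comparison in libraries labelled KO gave 5 calls among the 8 genes, with Vamp1 and Vamp4 higher and Snap25, Vamp2 and Vamp7 lower in growth cones. Over all 15410 genes tested 38.6% passed, 21.6% higher and 17% lower. The median log2 fold change was -0.70, against 0.11 for all genes. The groups did not overlap for Snap25, Stx1a, Vamp2, Vamp7 and Napb, 5 of the 8, against 36.8% of all genes.

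Snap25 in growth cones 7 to 11 labelled KO was at 345, 463, 407, 506 and 506 CPM, against 802, 1049, 987, 796 and 791 CPM in somata 14, 15, 22, 25 and 26 labelled KO. The log2 fold change was -0.91 ± 0.14 (SE, adjusted p = 0.000339). Vamp2 was at 236, 332, 345, 416 and 422 CPM in growth cones and 580.3, 605, 605, 573 and 554 CPM in somata (-0.66 ± 0.15, adjusted p = 0.00428). Both genes were lower in each growth cone library than in any soma library.

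Vamp1 varied most. It was at 1.87, 37.3, 24.9, 66.8 and 52.5 CPM in growth cones labelled KO and 5.25, 5.56, 1.60, 5.24 and 2.43 CPM in somata labelled KO. Growth cone library 7 fell among the somata, and the other 4 lay far above the highest of them. The log2 fold change was 3.26 ± 0.77 (SE, adjusted p = 0.00550), and 3.52 without growth cone library 7. The limma-voom test ended this call (2.86, adjusted p = 0.0728).

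Vamp4 was at 146, 74.9, 68.9, 73.5 and 158 CPM in growth cones labelled KO, where libraries 7 and 11 were high, and at 58.6, 55.6, 59.4, 55.9 and 77.1 CPM in somata. The groups overlapped through soma library 26, and the log2 fold change was 0.85 ± 0.27 (SE, adjusted p = 0.0268). Vamp7 was at 48.5, 38.01, 47.6, 35.9 and 14.9 CPM in growth cones and 58.7, 69.7, 82.2, 70.1 and 82.4 CPM in somata (-0.89 ± 0.30, adjusted p = 0.0329). Both calls were close to the threshold. With 1 library left out, 6 of 10 fits ended the Vamp4 call (growth cone 7 or 11, soma 14, 15, 22 or 25; adjusted p up to 0.0790), and 6 of 10 ended that of Vamp7 (growth cone 8 or 10, soma 15, 22, 25 or 26; up to 0.0688). Vamp4 was also lost without the filter (adjusted p = 0.0617), and Vamp7 with upper-quartile scaling (0.0968) or library totals alone (0.0524).

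Stx1a and Napb did not pass in libraries labelled KO, a result that changed with the test and with growth cone library 7. Stx1a was at 40.8, 129.8, 126, 166 and 146 CPM in growth cones and 227, 224, 217, 211 and 196 CPM in somata, with no overlap (-0.75 ± 0.29, adjusted p = 0.0598). Napb was at 10.5, 154, 154, 102 and 199 CPM in growth cones and 286, 336, 294, 266 and 272 CPM in somata, again with no overlap (-1.15 ± 0.52, adjusted p = 0.103). Without growth cone library 7 both passed, Stx1a at -0.57 (adjusted p = 0.00345) and Napb at -0.91 (adjusted p = 0.00294). With that library kept, both also passed with DESeq2 (adjusted p = 0.0401 for Stx1a and 0.0426 for Napb), with limma-voom (0.0217 and 0.0237) and in 1 fit of all 20 libraries (0.00721 and 0.0297). Stx1a passed without growth cone library 10 as well. Nsf was at 133, 235, 184, 204 and 236 CPM in growth cones and 214, 208, 201, 275 and 180.5 CPM in somata (-0.04 ± 0.18, adjusted p = 0.875). Its sign turned with upper-quartile scaling (0.15) and with library totals alone (0.07). Without growth cone library 7, 6 of the 8 genes passed, 1 higher and 5 lower. Without soma 15, 22 or 25, 3 passed.

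**Figure D2:**
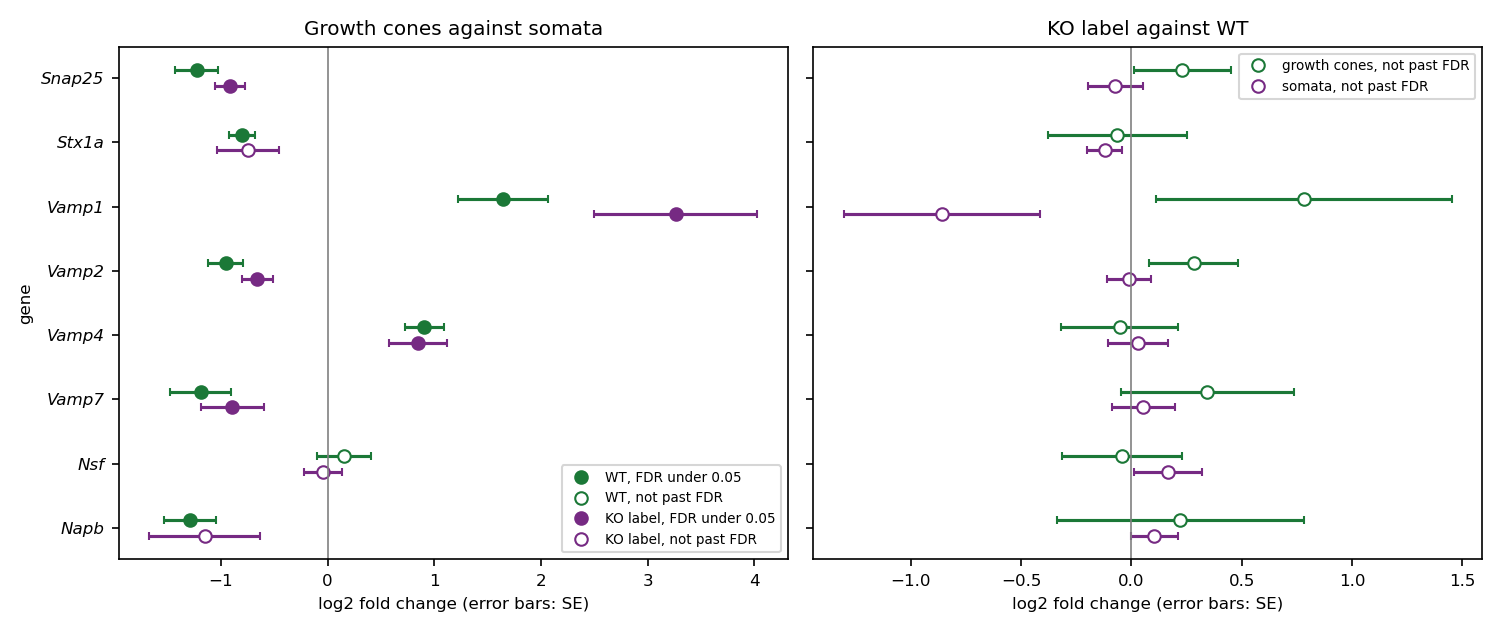
Log2 fold changes of the 8 genes (x axis) with their standard errors as bars, n = 5 libraries a group. Filled points passed an FDR of 0.05 and open points did not. The left panel compares growth cones with somata in WT and in libraries labelled KO, where 7 and 5 genes passed. The right panel compares libraries labelled KO with WT in growth cones and in somata, where 0 passed.

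The balance between related genes was compared within each library, as the log2 ratio of counts with a pseudocount of 0.5, which does not depend on library scaling. The 20 comparisons, of 5 pairs, were tested by two-sided exact permutation with adjustment over the 20, and 0.00794 is the smallest p that 5 against 5 libraries allow. In WT growth cones Vamp1 stood at 0.0437 to 0.118 counts per Vamp2 count, and in WT somata at 0.00736 to 0.0189. That was a mean log2 difference of 2.58, or 5.99-fold (exact permutation p = 0.00794, adjusted 0.0397). The difference in libraries labelled KO was 3.43 (exact permutation p = 0.0317, adjusted 0.106), with growth cone library 7 at 0.00800 and the other growth cones up to 0.160. Without that library the difference was 4.19 (adjusted exact p = 0.0317).

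The ratio of Vamp4 to Vamp7 counts, which is not corrected for exon length, was higher in growth cones. WT growth cones held 2.98 to 5.49 Vamp4 counts per Vamp7 count, and WT somata 0.711 to 1.21, a mean log2 difference of 2.16, or 4.47-fold (exact permutation p = 0.00794, adjusted 0.0397). Growth cones labelled KO held 1.45 to 10.6 and somata labelled KO 0.722 to 0.997, a log2 difference of 1.75, or 3.37-fold (exact permutation p = 0.00794, adjusted 0.0397). The ratio of Snap25 to its widely expressed relative Snap23 was 21.3 to 107 in growth cones of WT animals, against 167 to 1225 in their somata. The log2 difference was -3.09 (exact permutation p = 0.00794, adjusted 0.0397). Among libraries labelled KO the ratio spread from 12.6 to 3328 in growth cones and the difference of -0.40 did not pass (exact permutation p = 0.762, adjusted 0.968). The highest ratios rested on few Snap23 counts. Snap23 was at 0.0830 CPM in growth cone library 7 labelled KO (ratio 3328) and 0.804 CPM in WT soma 26 (ratio 1225).

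The ratio of Napb to Napa did not pass in any comparison. It differed by -0.70 between WT growth cones and somata (exact permutation p = 0.0317, adjusted 0.106). None of the 10 genotype comparisons of ratios passed. The lowest p among them was that of Vamp1 to Vamp2 in somata, at -0.97 (exact permutation p = 0.0635, adjusted 0.181). The 4 calls sit at the smallest p that the design allows. They were lost when a library of somata labelled KO, or WT soma 22, 25 or 26, was left out (adjusted exact p of 0.0529 or 0.0794). A call in the other genotype was then lost through the adjustment over the 20 comparisons alone, since its own libraries were unchanged.

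**Figure D3:**
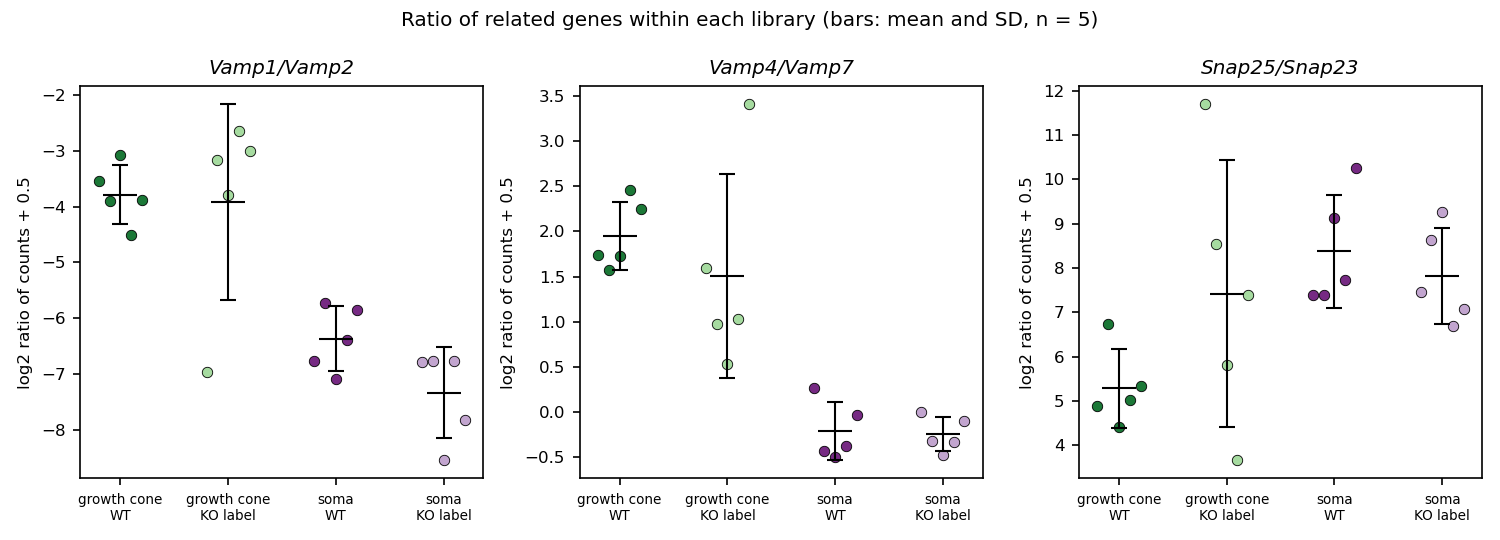
Log2 ratio of counts (pseudocount 0.5, y axis, not starting at 0) of 3 related pairs in each library (points), with mean and SD as bars, n = 5. Growth cones sit above somata for Vamp1/Vamp2 in WT and for Vamp4/Vamp7 in both genotypes, and WT growth cones sit below WT somata for Snap25/Snap23. Growth cone library 7 labelled KO is the low point for Vamp1/Vamp2 and the high point for Snap25/Snap23.

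The wider machinery was described with 81 other pathway genes in 7 lists. In WT 78 were tested and 38 passed, 11 higher and 27 lower in growth cones. In libraries labelled KO 80 were tested and 41 passed, 17 higher and 24 lower. The background shares are those given above, and the median log2 fold changes of these genes were -0.42 and -0.39.

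The exocyst, which tethers secretory vesicles to the plasma membrane before SNAREs engage, was lower in growth cones in both genotypes. Of its 9 genes 7 fell in WT and 7 in libraries labelled KO, with 0 higher. The list's median log2 fold change was -1.62 in WT and -1.47 in libraries labelled KO. Exoc7, a subunit that binds membrane, had the lowest p of the list in both. Its level was 43.5 ± 11.7 CPM in WT growth cones and 201 ± 42.5 CPM in WT somata (-2.17 ± 0.23 log2, SE, adjusted p = 1.96e-05). Its log2 fold change in libraries labelled KO was -1.93 ± 0.21 (SE, adjusted p = 3.79e-05). Exoc1 (-1.62) and Exoc6b (-2.14) also fell in WT, and Exoc3 (-1.60) and Exoc2 (-0.97) in libraries labelled KO. The count in libraries labelled KO was 5 with upper-quartile scaling and 6 to 8 when 1 library was left out.

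Among the plasma-membrane Q-SNAREs, 7 of 9 were tested in WT, with 1 higher and 2 lower. Stx4a, a syntaxin of constitutive exocytosis, rose by a log2 fold change of 1.26 (adjusted p = 0.0113), and Snap47 (-1.17) and Snap29 (-1.10) were lower. Of the 17 alternatives, 6 ended the Snap29 call (adjusted p up to 0.128). In libraries labelled KO 8 were tested and 3 were lower. Snap47 was at -1.04 (adjusted p = 0.000513). Stx11 was at 2.02 to 3.34 CPM in somata and held 1 count over the 5 growth cone libraries, at least 20.98-fold lower against a floor of 3 counts per library. Its WT levels were scattered, with 6.35 CPM in growth cone library 10 and 0 in the other 4. Snap23 passed in neither genotype, with 1.67 ± 0.71 (SE, adjusted p = 0.0769) in WT and 1.27 ± 1.16 (adjusted p = 0.423) in libraries labelled KO.

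Wide differences were found among the other R-SNAREs. Vamp8, an R-SNARE of endosomes and regulated secretion in many non-neuronal cells, was at 26.2, 36.8, 23.8, 25.9 and 20.3 CPM in WT growth cones and at most 1.44 CPM in WT somata (5.65 ± 0.81 log2, SE, adjusted p = 0.000163). In libraries labelled KO its log2 fold change was 4.66 (adjusted p = 0.000101). Vamp5, a VAMP described mainly in muscle and other non-neuronal tissue, was at 21.4, 19.9, 27.4, 13.7 and 11.3 CPM in WT growth cones and held 2 counts over the 5 WT somata. It was at least 172-fold higher in growth cones, against the floor of 3 counts per library. In libraries labelled KO it was at 10.2 ± 3.58 CPM against 0.0931 ± 0.183 CPM (adjusted p = 0.00254). The sums of astrocyte markers and of vessel and blood markers, the latter mostly globin, were higher in the same libraries. Their part was not tested. Of the 7 genes tested, 2 were higher and 1 lower in WT, and 3 higher and 2 lower in libraries labelled KO. Ykt6, an R-SNARE of many routes, was lower in both (-1.10 and -0.83), and Vamp3, cellubrevin, was higher in libraries labelled KO (1.42, adjusted p = 0.0140).

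The 16 endosomal, Golgi and ER Q-SNAREs went both ways, 4 higher and 3 lower in WT, and 6 higher and 1 lower in libraries labelled KO. Vti1b, a Q-SNARE of late endosomes, was at 958 ± 139.8 CPM in WT growth cones and 209.6 ± 45.8 CPM in WT somata (2.24 ± 0.18 log2, SE, adjusted p = 1.96e-06). It was likewise higher in libraries labelled KO (2.42 ± 0.19, adjusted p = 3.45e-06). Use1 and Bnip1, Q-SNAREs of retrograde traffic to the ER, were higher in WT by 1.83 and 0.94. Gosr2, a Golgi Q-SNARE, fell in WT (-1.44, adjusted p = 0.000465), and Stx7 (-0.60) and Stx6 (-0.63) were lower there too. Upper-quartile scaling ended the calls of Stx6 and Stx7 in WT (adjusted p = 0.119 and 0.0619). The NSF adaptors Napa and Napg fell in both genotypes. Napa, alpha-SNAP, had log2 fold changes of -0.65 (WT, adjusted p = 0.00818) and -0.94 (libraries labelled KO), and Napg, gamma-SNAP, at -0.99 and -1.16.

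Regulators of SNARE assembly were mixed, with 2 higher and 6 lower of 24 in WT and 5 higher and 4 lower of 25 in libraries labelled KO. Vps33a, which guides SNARE assembly at late endosomes and lysosomes, fell in WT (-2.05 log2, adjusted p = 5e-06), and so did Scfd1, which serves traffic between ER and Golgi (-1.84, adjusted p = 9.3e-05). Unc13c, the gene of the priming factor Munc13-3, was higher in WT growth cones at 33.1, 53.2, 41.1, 9.31 and 146 CPM, against 5.32 ± 1.79 CPM in somata (3.46 ± 0.64, adjusted p = 0.000954).

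Of 13 synaptic vesicle proteins, 2 were higher and 6 lower in WT, and 3 higher and 5 lower in libraries labelled KO. Synaptophysin (Syp, -1.33 in WT), synaptogyrin-3 (Syngr3, -0.88) and synapsin-1 (Syn1, -1.05) went the way of Vamp2. Slc17a6, the vesicular glutamate transporter VGLUT2, was at 86.0 ± 16.8 CPM in WT growth cones and 5.62 ± 3.73 CPM in WT somata (3.97 ± 0.58 log2, SE, adjusted p = 0.000174). Syn2 was higher as well (1.23, adjusted p = 0.00698).

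**Figure D4:**
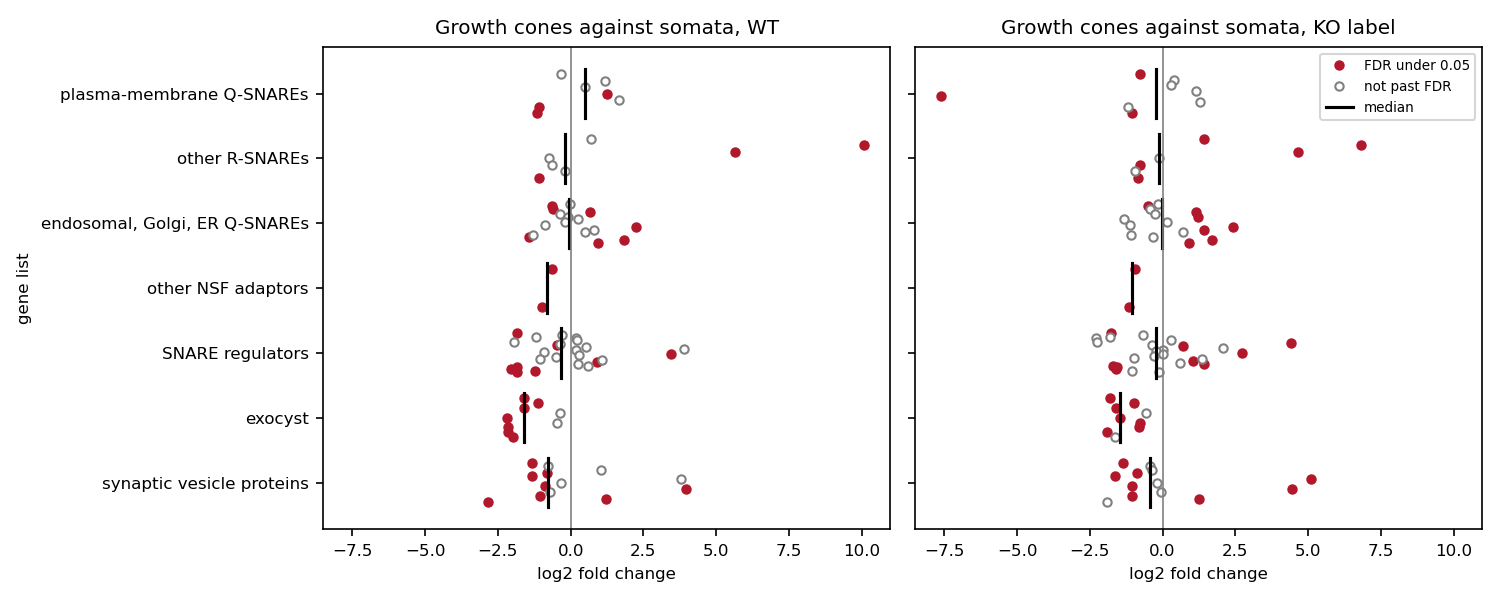
Log2 fold changes of growth cones against somata (x axis) for the tested genes of the 7 other pathway lists (rows), in WT and in libraries labelled KO. Filled points passed an FDR of 0.05, open points did not, and vertical bars are list medians. All exocyst genes lie left of 0. Points beyond 5 on either side belong to genes with few or no counts in 1 compartment (Vamp5, Vamp8, Sv2c, Stx11), whose fitted values depend on the prior count.

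The second question was whether loss of Bcl11b altered these genes. In growth cones 0 of the 8 genes passed between libraries labelled KO and WT, as did 0% of all 15419 genes tested. In the edgeR test 0 of the 8 reached an unadjusted p under 0.05, against 2.13% of all genes, and DESeq2 called 0 of the 8. Shares of all genes here and below are those of edgeR, and none was taken for DESeq2. The largest log2 fold change was that of Vamp1 (0.78 ± 0.67 SE), whose libraries labelled KO lay below, within and above the WT range. Vamp7 was at 0.35 ± 0.39, Vamp2 at 0.28 ± 0.20, Snap25 at 0.23 ± 0.22 and Napb at 0.22 ± 0.56 (SE). Stx1a (-0.06 ± 0.31), Vamp4 (-0.05 ± 0.27) and Nsf (-0.04 ± 0.27) were nearer to 0. Each had an adjusted p of 1.00, and the groups overlapped for each of the 8 genes, while 0.532% of all genes did not overlap.

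In somata 0 of the 8 genes passed either, against 0.731% of 14911 genes tested. None reached an unadjusted p under 0.05 in edgeR, which 8.57% of all genes did, and DESeq2 called 0 of the 8. Standard errors were smaller here, from 0.08 to 0.15 on the log2 scale except for Vamp1. Snap25 was at -0.07 ± 0.12, Stx1a at -0.12 ± 0.08 and Vamp2 at -0.01 ± 0.10 (SE). Vamp4 (0.03 ± 0.14), Vamp7 (0.05 ± 0.14), Napb (0.10 ± 0.11) and Nsf (0.17 ± 0.15) had adjusted p-values of 0.935 to 0.997. Vamp1 had the lowest p of the 8 (log2 fold change -0.86 ± 0.44, SE, adjusted p = 0.677). Its 5 libraries labelled KO, at up to 5.56 CPM, overlapped the WT ones through WT soma 22, and the groups of the other 7 genes overlapped too (3.17% of all genes did not).

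An interaction term, fitted to all 20 libraries, compared the genotype difference in growth cones with that in somata. None of the 8 genes passed in edgeR, against 0.0397% of 17645 genes tested, and none passed in DESeq2. None reached an unadjusted p under 0.05 in edgeR either, which 6.98% of all genes did. Vamp1 had the largest estimate, 1.59 ± 0.83 (SE, adjusted p = 0.767), from a value of 0.78 in growth cones and -0.86 in somata. The other 7 lay between -0.23 (Nsf) and 0.28 (Snap25). A p that misses the threshold does not show equal effects.

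Among the other pathway genes, edgeR called 0 of 77 in growth cones, where 3 had an unadjusted p under 0.05 and DESeq2 called 1, and 1 of 78 in somata. That gene was Stxbp6, which encodes amisyn, a protein with an R-SNARE-like domain that binds syntaxin-1 and SNAP-25 in place of a VAMP. It was at 35.9, 29.1, 32.1, 43.5 and 42.6 CPM in WT somata 12, 14, 22, 25 and 26, and at 2.92, 1.67, 2.48, 0.0993 and 0.0311 CPM in somata 14, 15, 22, 25 and 26 labelled KO. The groups were far apart, with means of 36.7 ± 6.34 and 1.44 ± 1.33 CPM. The log2 fold change was -4.66 ± 0.83 (SE, adjusted p = 0.0264). The value stayed between -5.07 and -4.35 when 1 library was left out, but the call was lost in 6 of these 10 fits (WT soma 14, 22, 25 or 26, soma 15 or 22 labelled KO), with an adjusted p of up to 0.0750.

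Growth cones did not show this split. The WT libraries held Stxbp6 at 16.3, 50.1, 18.4, 8.04 and 45.2 CPM. The libraries labelled KO held it at 23.7, 12.7, 41.3, 52.0 and 16.5 CPM, and the groups overlapped (0.13 ± 0.56 log2, SE, adjusted p = 1.00). The interaction was 4.75 ± 1.10 (SE) and did not pass (adjusted p = 0.178). In libraries labelled KO growth cones exceeded somata by 4.41 ± 1.05 (SE, adjusted p = 0.00592), while in WT the compartments differed by -0.36 ± 0.45 (adjusted p = 0.550). Of the 80 other pathway genes tested, edgeR called 0 for the interaction, 6 had an unadjusted p under 0.05 and DESeq2 called 3. The DESeq2 count has no share of all genes to stand beside it.

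**Figure D5:**
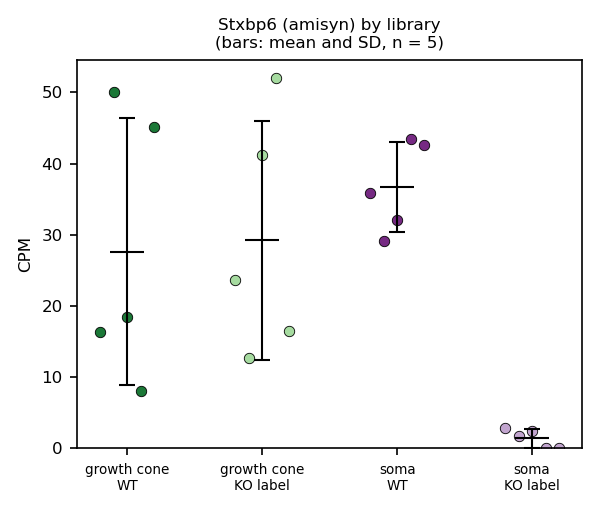
Level of Stxbp6 in each library (y axis, CPM with TMM scaling, starting at 0; x axis, the 4 groups), with mean and SD as bars, n = 5. The 5 somata labelled KO sit at or below 2.92 CPM, and the 5 WT somata between 29.1 and 43.5 CPM.

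Across the 20 libraries, some of the 8 genes varied together. As Pearson r of log2 CPM, Stx1a and Napb had 0.949 and Snap25 and Vamp2 had 0.927. Vamp4 ran against the 5 genes that were lower in WT growth cones, with r from -0.665 (Vamp7) to -0.756 (Stx1a). Vamp1 had r of -0.686 to Vamp7 but only -0.139 to Stx1a and -0.0948 to Napb. Nsf had r between -0.192 and 0.320 to the other 7. Among the 11341 genes that averaged 5 CPM or more, the gene most like each member by the same measure was Ndufv1 for Snap25 (0.947), Gnl2 for Stx1a (0.971) and Lzts1 for Vamp2 (0.961). For Napb it was Parg (0.973), for Vamp7 Npy1r (0.922), for Vamp4 Cisd1 (0.924), for Vamp1 Peg3 (0.922) and for Nsf N4bp2l2 (0.895). Group means were not removed, so the compartment differences given above enter each r, which is not separate evidence of them. These are descriptions over libraries whose tissue differs by compartment and whose RNA input may differ too, and carry no p.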

How the data were processed

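RNA of 20 libraries was prepared with SMART-seq v4 and Nextera XT per the labels' protocols. The authors deposited raw counts per gene in 1 table. The submitters' processing notes name Trimmomatic 0.39, STAR 2.7.1a and featureCounts 1.5.0. Use of strand and handling of reads with several matches are not given in the sources used here. The table held 0 entries naming no gene.

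Groups came from sample titles. Genes were tested with edgeR 4.0.16 in R 4.3.3 (filterByExpr with minimum count 10, TMM scaling, quasi-likelihood F test, Benjamini-Hochberg FDR 0.05 over all genes tested), with only the compared groups in a fit and all 20 libraries for the interaction. SE is the absolute log2 fold change over the root of F. The test was also run on simulated counts, with an outcome not reported here. Far fewer genes were changed there than passed between compartments, so that run is no check of the compartment comparisons. Replicate libraries differed far beyond sampling noise (chi-square per degree of freedom at least 52.7), so none was merged. DESeq2 1.42.0 and limma-voom (limma 3.58.1) were alternatives, with other scalings, no filter, 1 fit of all libraries, the experiment number as a block and each library left out.

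Ratios of related genes used exact permutation over all splits (Python 3.11.15), with the adjustment from statsmodels 0.14.6. Coding sequences came from GENCODE M21 and were aligned with Biopython 1.88. No coding sequence of Vamp7 was used here. Lower bounds use a floor of 3 counts per library. Floors cover counting error only, since the protocol names no molecular identifiers. Outside the 8 genes and the partners in the ratios, the text names up to 3 genes per list and direction with the lowest p, and for each of the 8 the gene most like it. The genes and lists were chosen with earlier results of these data known. Results for some genes of the lists, counted with the rest, are not reported here.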

Additional observations from a re-analysis of the deposited data

Results flagged for a closer look

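In groups of 5 libraries, a value was singled out when its gap to the nearest other library exceeded 0.710 of the group's range, a limit that chance passes in about 1 of 20 groups. Of 52 combinations of value and group examined, 4 passed. Vamp4 in soma library 26 labelled KO was high at 77.1 CPM, against 55.6 to 59.4 CPM in the other 4. Napb in WT growth cone library 8 was low at 47.1 CPM, against 113 to 135 CPM in the others. The remaining pair came from growth cone library 7 labelled KO. Its log2 ratio of Vamp1 to Vamp2 was -6.97, against -3.79 to -2.64 in the other 4, and its log2 ratio of Napb to Napa was -4.37, against -0.60 to 0.04. The cause was not tested.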

How the results depend on the processing

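Among the 8 genes, 0 passed between genotypes or for the interaction under every alternative run, and 7 passed between WT growth cones and somata. Between growth cones and somata labelled KO the count ran from 3 (without soma 15, 22 or 25) to 6 (without growth cone 7) when 1 library was left out, and was 4 with upper-quartile scaling, with library totals alone or without the filter, 6 with limma-voom and 7 with DESeq2 or 1 fit of all libraries. For the other pathway genes, DESeq2 and the fit of all 20 libraries each called 1 between growth cone genotypes (Gosr2, named after its values were seen). Between somata of the 2 genotypes DESeq2 called 3 (Stxbp6, and Stx16 and Slc17a7, named after their values were seen), and the count was 0 to 2 when 1 library was left out. DESeq2 called 3 for the interaction (Stxbp6, and Gosr2 and Exoc6b, named after their values were seen). No share of all genes was taken for DESeq2, so its counts cannot be set against a background. The calls among ratios ran from 0 to 5 when 1 library was left out. Upper-quartile scaling moved the share of calls that were higher in growth cones from 54.1% to 63.0% in WT.

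Samples with the same experiment number deviated together only weakly (r 0.00395 to 0.0882 in growth cones, -0.0465 to 0.0595 in somata), and 4 of 5 and 3 of 4 of them correlated best with their own number. With the number as a replicate block 0 of the 8 genes passed between genotypes or for the interaction, and the other pathway genes called in somata went from 1 to 0 (Stxbp6, adjusted p = 0.245). The soma block fit used only the 4 numbers found in both genotypes, so it left out WT soma 12 and soma 15 labelled KO. The block and the smaller set of libraries cannot be told apart there. That fit also ended the call of Bcl11b in somata (0.68, adjusted p = 0.167). In these block fits the sign turned for Nsf (0.011), Napb (-0.015) and Bcl11b (-0.016) in growth cones, Vamp2 in somata (0.042), and the interactions of Stx1a (-0.0735) and Napb (-0.083).

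Signs of values near 0 also turned with limma-voom for Nsf (0.0085), Napb (-0.18) and Bcl11b (-0.018) in growth cones and for the interactions of Stx1a (-0.094) and Napb (-0.32). Library totals alone turned Vamp2 in somata (0.0021) and Nsf between growth cones and somata labelled KO (0.073), and upper-quartile scaling turned the latter (0.15). When 1 library was left out, these results took both signs, and none of them was past the threshold. The cause was not tested.  Between growth cones labelled KO and WT the log2 value ran -0.23 to 0.16 for Stx1a, -0.25 to 0.066 for Vamp4, -0.22 to 0.13 for Nsf, -0.0042 to 0.52 for Napb and -0.11 to 0.15 for Bcl11b. Between growth cones labelled KO and WT the log2 difference of ratios ran -0.21 to 0.89 for Napb to Napa and -0.44 to 0.64 for Vamp1 to Vamp2. Between somata labelled KO and WT the log2 value ran -0.14 to 0.0091 for Snap25, -0.086 to 0.045 for Vamp2, -0.067 to 0.10 for Vamp4 and -0.0009 to 0.14 for Vamp7. Between somata labelled KO and WT the log2 difference of ratios ran -0.10 to 0.088 for Vamp4 to Vamp7. Between WT growth cones and somata the log2 value ran -0.025 to 0.36 for Nsf. Between growth cones and somata labelled KO the log2 value ran -0.14 to 0.043 for Nsf. Between growth cones and somata labelled KO the log2 difference of ratios ran -1.01 to 0.091 for Napb to Napa and -1.47 to 0.54 for Snap25 to Snap23. For the interaction the log2 value ran -0.11 to 0.25 for Stx1a, -0.30 to 0.010 for Vamp4 and -0.13 to 0.41 for Napb.

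Vamp1 rested on the fewest counts of the 8 genes, down to 45 in growth cone library 7 labelled KO and 76 in a soma library labelled KO. The part of depth in its spread was not tested.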
